A study of Mus musculus with 12 samples.

Results

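The 29 genes described here carry out or control the synthesis, intracellular movement, export, storage and uptake of cholesterol in the liver. They were chosen by name for these roles, with earlier results of these data known, and each was found once among the 20143 genes of the deposited table. Liver RNA came from 12 mice, 6 wild-type (WT) and 6 Hsd17b13-KO (KO), with 1 sequencing library per mouse. All 12 mice ate CDAA-HFD, a high-fat diet with defined amino acids and too little choline that produces a fatty and scarred liver, for 12 weeks, beginning when they were 8 to 10 weeks old. Mice on an ordinary diet are not part of the samples used here, so every value belongs to this diet. The sources used here do not give the sex, litter or strain of the mice or the construct behind the KO allele. Values are counts scaled to a total of 1000000 per library (CPM), and a difference is KO minus WT of log2(CPM + 1) from limma, with its 95% interval.

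Cholesterol is built from acetyl-CoA through mevalonate, farnesyl pyrophosphate, squalene and lanosterol. The transcription factor SREBP2, encoded by Srebf2, drives the genes of this route. When sterols are plentiful, SCAP and the INSIG proteins hold SREBP2 in the endoplasmic reticulum, and when sterols are scarce it is cleaved and enters the nucleus. Surplus cholesterol is esterified by the SOAT enzymes, exported by ABC transporters under control of liver X receptors, or secreted into bile.

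By the smallest step between values, 1 CPM corresponded to 46.3 to 77.9 counts per library. The targeted gene Hsd17b13 followed every genotype label, at 315 to 393 CPM in WT and 0.956 to 1.40 CPM in KO. All 29 members had a mean of at least 10 CPM, from 13.6 for Mvd to 419 for Abca1, and all entered the test. Counting error in the shallowest library was at most 5.09% for any member. The 6 hepatocyte markers summed to 67405 to 87799 CPM in WT and 67947 to 84569 in KO, and 0 of them passed the test. The 4 cholangiocyte markers summed to 41.1 to 93.0 CPM in WT and 19.9 to 37.6 in KO without overlap. Among single tested genes, 0.893% had groups that did not overlap. Each marker had a lower KO mean, with an unadjusted limma p from 7.8e-05 for Krt7 to 0.0017 for Sox9. Only Sox9 reached 10 CPM, and it did not pass the test (adjusted p = 0.158). In the limma fit without that filter, the adjusted p was 0.052 for Krt7 and 0.056 for Krt19. The part of these markers in the differences given here was not tested. A pair of libraries stood apart by genes of neighbouring tissue, with 1 gene per tissue to show it, since the other listed markers (Prss2 and Cpa1, Cyp11a1 and Cyp11b1) have no row in the table used here. The pancreatic elastase gene Cela1 reached 224 CPM in WT mouse 1 and 94.4 in KO mouse 3, against 4.99 to 7.25 in the other mice. The steroidogenic transport gene Star was at 26.7 CPM in KO mouse 3, against 1.81 to 3.24 in the others.

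Counts of cholesterol genes past each threshold lay near the shares over all tested genes. With limma 0 of 29 passed an adjusted p of 0.05, where 0.152% of the 9186 tested genes did (0.109% higher and 0.0435% lower in KO), and the smallest adjusted p among them was 0.285, for Abcg5. At an unadjusted p under 0.05 there were 3 of 29, namely Abcg5 and Abcg8 with higher KO means and Soat1 with a lower one, against 9.8% of all tested genes (4.51% higher and 5.29% lower). In all 29 the range of KO mice overlapped that of WT mice, and 0.893% of tested genes had groups that did not overlap. With shares this low over all genes, a count of 0 among 29 says little about the members, and it does not show equal levels. The count at an unadjusted p under 0.05 was 7, with 6 higher, when WT mouse 5 was left out, and 0 members passed the adjusted test without any 1 mouse. The median difference was 0.08 over the members and -0.01 over all tested genes.

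**Figure D1:**
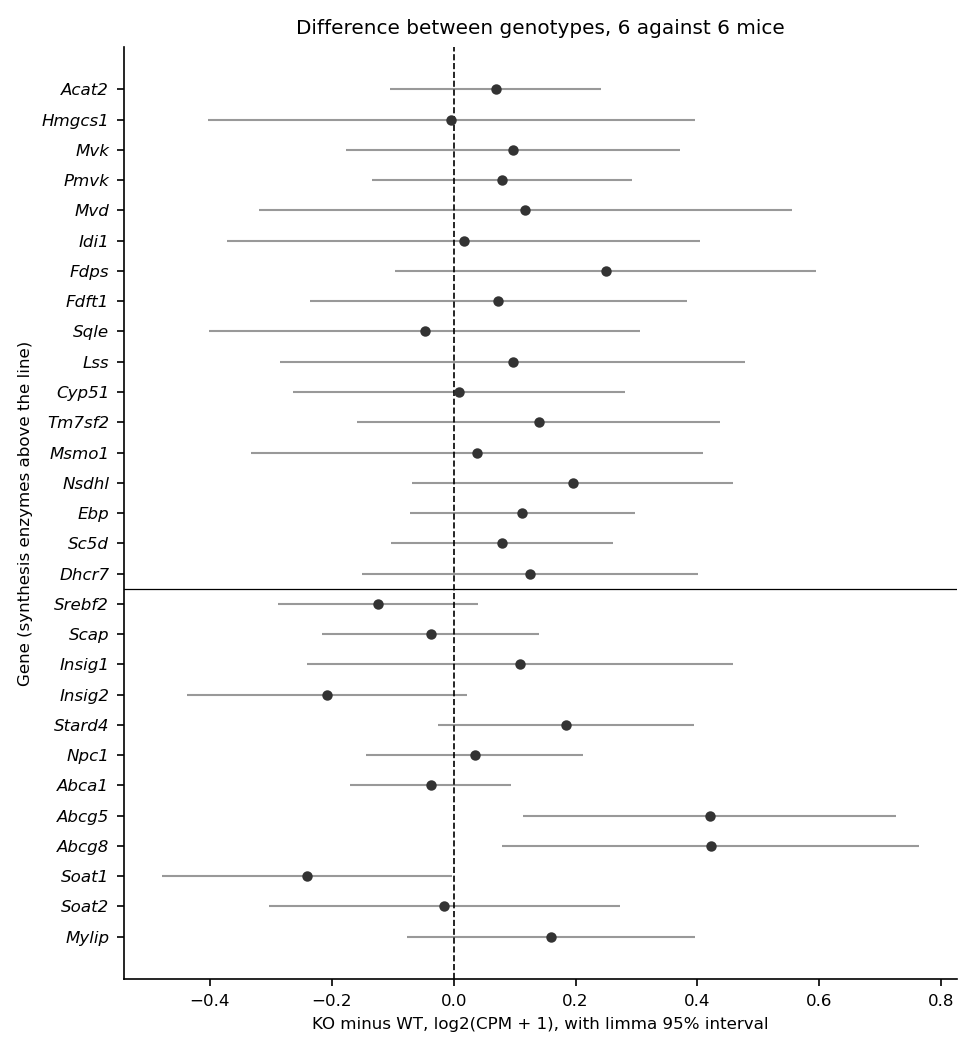
Difference between genotypes for each of the 29 genes, as KO minus WT of log2(CPM + 1) on the x axis, with points for the limma estimate and bars for its 95% interval, from 6 WT and 6 KO mice. The intervals of Abcg5, Abcg8 and Soat1 leave out 0 before adjustment for the 9186 genes tested, and the largest estimates, 0.42 for Abcg5 and for Abcg8, did not pass after it.

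The 7 mevalonate pathway enzymes, from acetyl-CoA to farnesyl pyrophosphate, differed widely between mice and little between genotypes. Hmgcs1, the synthase that makes HMG-CoA, ran from 280 CPM through a median of 377 to 580 in WT and from 273 through 399 to 479.6 in KO. Its means were 395 ± 112 (SD, n = 6) and 389 ± 86.4, with a difference of -0.0040 and an interval of -0.40 to 0.40. WT mouse 5 was highest and WT mouse 4 lowest in WT, and KO mouse 6 was highest and KO mouse 3 lowest in KO. The spread within a genotype was 2.07-fold from lowest to highest WT mouse and 1.76-fold in KO, and the difference in means was far inside it.

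Idi1, the isomerase that supplies dimethylallyl pyrophosphate, showed the same order at its extremes. It ran from 97.7 CPM through 140 to 209.9 in WT and from 103 through 146 to 186 in KO (difference 0.02, interval -0.37 to 0.40). A copy, Gm13502, is 100% identical to Idi1 over 684 bases and had 28.4 CPM, so the split of their reads is uncertain. Mvd, which decarboxylates mevalonate pyrophosphate, had the largest coefficient of variation of the members in KO, 32.7%, and 27.3% in WT, where Hmgcs1 (28.5%) and Idi1 (28.1%) were above it. Its values were 8.33, 13.2 and 18.2 CPM (lowest, median, highest) in WT and 9.98, 13.4 and 21.8 in KO, a 2.18-fold range in WT. WT mouse 3 rather than WT mouse 5 was the highest WT mouse for Mvd.

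Fdps, which makes farnesyl pyrophosphate, had the largest positive difference among the 17 synthesis enzymes. WT mice ran from 63.6 CPM through 80.8 to 127, and KO mice from 76.4 through 105 to 128. The means were 84.9 ± 21.9 and 100.5 ± 20.2 CPM, with a difference of 0.25, an interval of -0.10 to 0.59 and an adjusted p of 0.689 with limma. WT mouse 5, at 127 CPM, stood level with the highest KO mouse, and without it the difference was 0.37 (adjusted p = 0.237). Fdps has processed copies elsewhere, of which Gm3571 (98.9% identical, 22.8 CPM) and Gm5873 (96.7% identical, 12.1 CPM) are above 10 CPM, so how counting split their reads is uncertain.

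The kinases Mvk and Pmvk, which phosphorylate mevalonate in sequence, were low and moved little. Mvk averaged 20.5 ± 3.16 CPM in WT and 22.2 ± 4.30 in KO (difference 0.10, interval -0.18 to 0.37). It lies on chromosome 5 (114444269 to 114460591, mm10), 10.5 Mb from Hsd17b13, closer than the other 2 members on that chromosome, Insig1 at 75.9 Mb and Cyp51 at 99.9 Mb. Pmvk was at 15.5 ± 2.63 and 16.3 ± 1.57 CPM (difference 0.08). Acat2, the cytosolic acetyl-CoA acetyltransferase at the head of the route, was at 44.8 ± 4.99 and 47.0 ± 4.48 CPM (difference 0.07). Its neighbour Acat3 is 97.7% identical over 1477 bases and was at 270 CPM, so the reads of these genes may not be cleanly told apart.

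The 10 enzymes from squalene to cholesterol repeated this picture. Sqle, the squalene epoxidase that controls flux into sterols, ran from 55.3 CPM through 75.4 to 91.9 in WT and from 53.1 through 71.5 to 109 in KO. Its means of 74.6 ± 11.8 and 73.7 ± 21.2 CPM differed by -0.05 (interval -0.40 to 0.31), while KO mouse 6 exceeded every other mouse. Lss, the cyclase that forms lanosterol, ran from 37.0 CPM through 45.3 to 57.8 in WT and from 34.3 through 53.2 to 78.4 in KO. The 2.29-fold range of Lss in KO, from KO mouse 3 to KO mouse 6, was the widest of any member within a genotype. Nsdhl, a sterol dehydrogenase of C4 demethylation on the X chromosome, ran from 29.4 CPM through 32.7 to 50.7 in WT and from 35.1 through 38.8 to 49.6 in KO. All 6 KO mice lay above its WT median, and the difference of 0.20 (interval -0.07 to 0.46) had an adjusted p of 0.675 with limma. Without WT mouse 5, the highest WT mouse, it was 0.30 (adjusted p = 0.162).

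Other late enzymes stayed within these bounds. Fdft1, the squalene synthase, averaged 79.9 ± 14.96 CPM in WT and 84.3 ± 16.6 in KO. Cyp51, the lanosterol demethylase, was at 140 ± 29.6 and 139.6 ± 17.4, and Msmo1, the sterol C4 oxidase, at 113 ± 22.9 and 117 ± 29.5. The sterol reductases Tm7sf2 and Dhcr7 were at 33.1 ± 7.19 and 36.3 ± 6.23 CPM and at 72.0 ± 12.7 and 78.7 ± 13.9, in that order. Ebp, the sterol isomerase, was at 84.1 ± 10.4 and 90.8 ± 8.68, and Sc5d, the lathosterol desaturase, at 315 ± 44.7 and 331 ± 21.8. Differences of these 7 genes lay between 0.01 for Cyp51 and 0.14 for Tm7sf2. Exons of Fdft1 share 774 bases with Ctsb, which was at 1077 CPM on the opposite strand, and those of Tm7sf2 share 532 bases with Vps51 on the same strand, so their counts are uncertain to that extent.

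**Figure D2:**
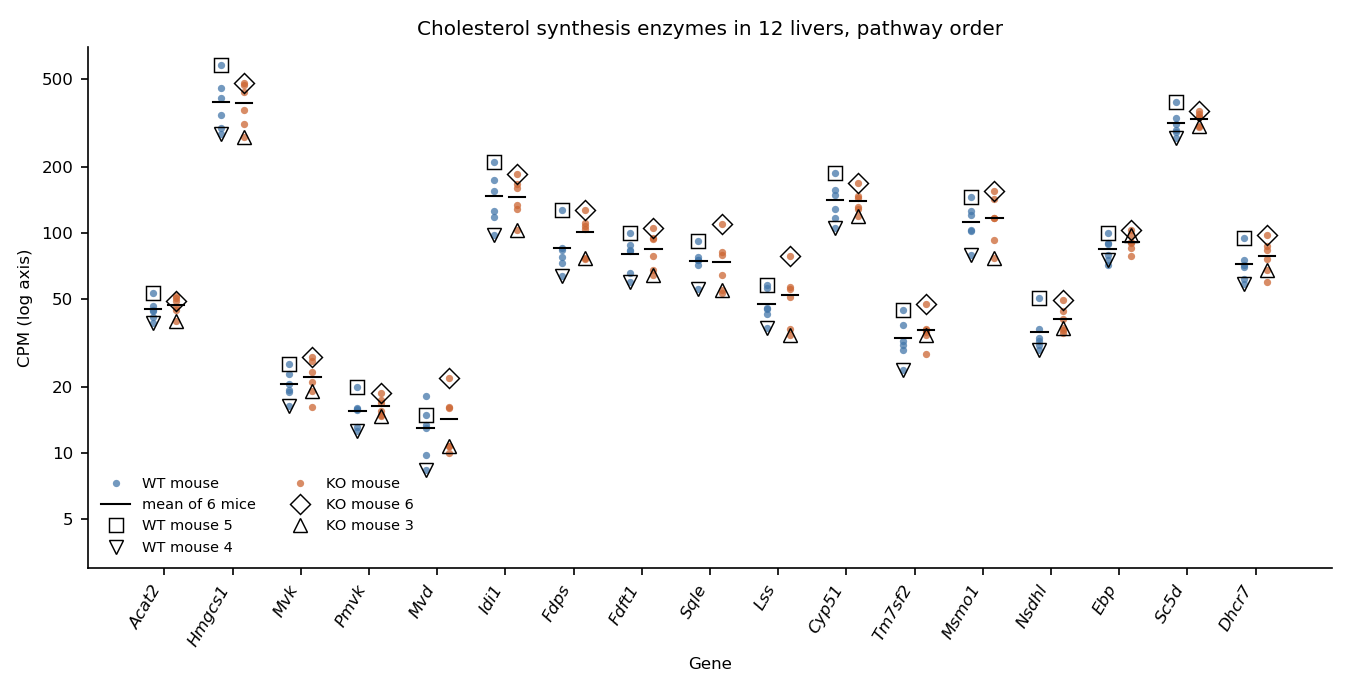
Level of the 17 synthesis enzymes in each mouse, with genes in pathway order on the x axis and CPM on a logarithmic y axis, blue points for WT mice, orange points for KO mice and a bar for the mean of 6 mice. Open symbols mark WT mice 5 and 4 and KO mice 6 and 3: WT mouse 5 and KO mouse 6 were each the highest mouse of their genotype in 16 of 17 enzymes, and both genotypes cover nearly the same range.

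The enzymes varied together from mouse to mouse within each genotype. WT mouse 5 lay above the WT median in 17 of 17 enzymes and was the highest WT mouse in 16. WT mouse 4 lay above it in 0 of 17 and was the lowest in 16. In KO, mouse 6 lay above the median in 17 of 17 and was the highest in 16, while KO mice 1 and 3 lay above it in 0 and 1 of 17 and were each the lowest in 8. The mean deviation from the genotype mean on the log2 scale was 0.39 in WT mouse 5, -0.35 in WT mouse 4, 0.35 in KO mouse 6 and -0.27 in KO mouse 3.

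After the genotype means were removed, the 136 pairs of enzymes had a median Pearson r of 0.805 over the 12 mice, and 125 pairs exceeded 0.5. Over all pairs of the 9186 tested genes the median was 0.087, and 16.6% of pairs exceeded 0.5. The median of the enzyme pairs was 0.840 within the 6 WT mice and 0.846 within the 6 KO mice. It was 0.713 over 10 mice when WT mouse 5 and KO mouse 6 were left out, and 0.826 and 0.807 without WT mouse 1 and without KO mouse 3. These values are descriptions, since genes of 1 library share its depth and composition. Against the mean deviation of the other 16 enzymes, Fdft1 (r = 0.962) and Fdps (0.958) followed most closely, and Ebp (0.423) and Sc5d (0.774) least.

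**Figure D3:**
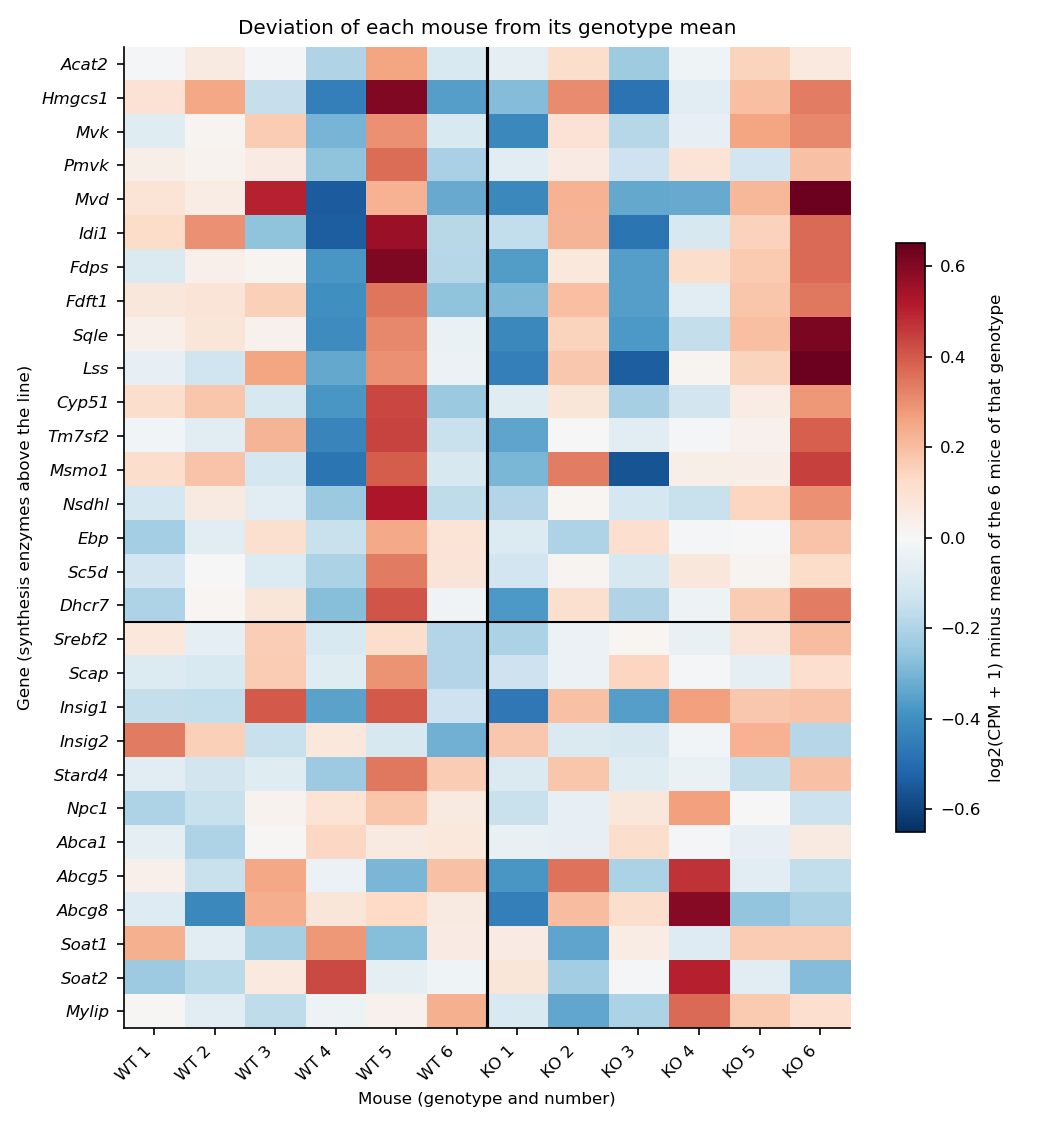
Deviation of every mouse (x axis) from the mean of its genotype for each of the 29 genes (y axis), on the log2(CPM + 1) scale given by the colour bar, with red above and blue below that mean. Columns WT 5 and KO 6 are red and columns WT 4, KO 1 and KO 3 mostly blue through the 17 enzymes above the line, and the 12 genes below the line do not share those bands to the same degree.

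The spread of the enzymes between mice was wide beside that of other genes. Their coefficients of variation ran from 11.1% to 28.5% in WT and from 6.59% to 32.7% in KO, with medians of 18.7% and 19.4%. Medians over all tested genes were 9.71% in WT and 9.15% in KO. In WT the median enzyme stood at percentile 89.996 of tested genes and in KO at percentile 90.5. Sums of the hepatocyte markers per mouse tracked the mean of the enzymes weakly over the 12 mice (r = 0.155, genotype means removed), and sums of the macrophage markers gave r = -0.191. The endothelial markers gave r = 0.415, the adrenal gene Star -0.445 and the pancreatic gene Cela1 -0.284, all as descriptions. WT mouse 5 had the highest hepatocyte sum of the 12 mice and KO mouse 6 the second lowest.

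With the spread this wide, the estimates of the 17 enzymes had 15 positive signs and a median of 0.08, against 45.6% positive signs over all tested genes. Positive signs numbered 16 with median-of-ratios scaling and 14 with quantile normalization, and they depended on single mice. There were 10 positive signs of 17 without KO mouse 6, 11 without WT mouse 4, and 17 of 17 without WT mouse 5, KO mouse 1 or KO mouse 3. The median moved likewise, to 0.030 without WT mouse 4, 0.035 without KO mouse 6 and 0.052 without WT mouse 6. It was 0.152, 0.130 and 0.135 without WT mouse 5, KO mouse 1 and KO mouse 3, and 0.126 with median-of-ratios scaling. That scaling also moved the median over all tested genes, from -0.010 to 0.035. The widest interval, that of Mvd, reached from -0.32 to 0.55, and the narrowest, that of Acat2, from -0.10 to 0.24.

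Of the genes in neither sterol list, the 5 whose deviations followed the mean of the 17 enzymes most closely over the 12 mice were Gm5873 (Pearson r = 0.953, Spearman rho = 0.944), Gm3571 (0.942, 0.888), Tmem14c (0.878, 0.783), Erg28 (0.868, 0.825) and Tlcd2 (0.841, 0.853). The first 2 are the copies of Fdps named above and may hold its reads. Erg28 encodes an endoplasmic reticulum protein first known from yeast sterol synthesis, and Tmem14c a mitochondrial membrane protein of haem synthesis. Synthesis enzymes made up 16 of the 50 genes with the highest r, in part by construction, because each enzyme is in that mean.

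Promoter sequences are shown for some of the synthesis enzymes. SREBP2 is known to act with the factor NF-Y at sterol genes, and the part of either factor in the joint variation was not tested. RefSeq windows of 250 bases before to 50 after the gene start (build GRCm38.p6) were found for 23 of the 29 members. The NF-Y box CCAAT, searched on both strands so that ATTGG also counts, was present in 20 of the 23 genes and in 13 of 14 synthesis enzymes, against 41.1% of 27025 genes in the table and 37.4% of its 32851 windows. The sterol regulatory element TCACNCCAC, also on both strands, was present in Hmgcs1 and in no other of the 23 members, against 1.44% of the 27025 genes. Among members that are not enzymes, the NF-Y box was present in Insig1 and Srebf2, which followed the enzyme mean (r = 0.794 and 0.711). It was also present in Insig2, Mylip, Abcg5, Abcg8 and Soat1, with r of -0.184, 0.125, -0.027, -0.026 and -0.423. So the box was not particular to genes that varied together. These are matches of letters, and no binding was measured. In the stretches that follow, which end at the base before the gene start and read 5′ to 3′ on the + strand, capitals mark every match.
Hmgcs1, chr13:119690101-119690350: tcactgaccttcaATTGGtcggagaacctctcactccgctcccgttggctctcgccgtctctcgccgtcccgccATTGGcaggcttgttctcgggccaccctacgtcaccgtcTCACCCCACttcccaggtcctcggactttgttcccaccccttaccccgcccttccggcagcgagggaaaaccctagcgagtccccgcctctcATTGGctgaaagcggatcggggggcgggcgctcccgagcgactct
Idi1, chr13:8885506-8885605: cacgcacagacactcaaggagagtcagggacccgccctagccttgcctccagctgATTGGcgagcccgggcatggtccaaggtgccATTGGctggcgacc
Mvk, chr5:114444069-114444268: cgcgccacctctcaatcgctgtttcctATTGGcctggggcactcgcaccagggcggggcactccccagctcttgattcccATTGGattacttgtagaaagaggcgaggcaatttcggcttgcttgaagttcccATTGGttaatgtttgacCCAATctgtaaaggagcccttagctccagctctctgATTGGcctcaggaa
Nsdhl, chrX:72918371-72918520: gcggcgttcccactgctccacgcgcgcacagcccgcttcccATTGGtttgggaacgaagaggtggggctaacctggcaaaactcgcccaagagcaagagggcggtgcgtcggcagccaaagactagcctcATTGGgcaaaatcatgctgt
In Hmgcs1 the sterol regulatory element begins 137 bases before the start, between NF-Y boxes that begin 176 and 45 bases before it. Mvk holds 5 boxes within these 200 bases, and Idi1 holds 2 within 100.

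In this control group, Insig1 and Srebf2 followed the enzymes over the 12 mice more closely than Scap and Insig2 did. Against the enzyme mean, Pearson r and Spearman rho were 0.794 and 0.657 for Insig1 and 0.711 and 0.692 for Srebf2. They were 0.526 and 0.413 for Scap and -0.184 and -0.147 for Insig2. Insig1, itself induced by SREBP2, ran from 184 CPM through 212 to 309.8 in WT and from 183 through 287 to 305 in KO. WT mice 3 and 5 stood at 309.8 and 309.1 CPM and the other 4 at 184 to 214, and KO mice 1 and 3 stood at 183 and 198 against 286 to 305 in the other 4. So each genotype held high and low mice, and the means of 239.6 ± 55.1 and 258 ± 53.0 CPM differed by 0.11 (interval -0.24 to 0.46). Over the 12 mice Insig1 correlated with Sqle at r = 0.703 (permutation p = 0.0176, adjusted p = 0.0367 over 10 gene pairs; Spearman rho = 0.580, p = 0.0718, adjusted 0.144), and at r = 0.699 without the 2 mice farthest from its median.

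Insig2, the paralogue that is not induced by SREBP2, ran from 204 CPM through 251 to 321 in WT and from 193 through 212 to 257 in KO. Of the KO mice 5 lay below the WT median, and 1 lay below every WT mouse. The means of 257 ± 42.0 and 221 ± 25.8 CPM differed by -0.21 (interval -0.44 to 0.02, limma adjusted p = 0.576). Its correlation with Insig1 was r = -0.340 (permutation p = 0.295, adjusted 0.421; rho = -0.448, p = 0.162, adjusted 0.232), and with the enzyme mean r = -0.184, where Insig1 had 0.794.

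Srebf2 ran from 105 CPM through 119.9 to 133 in WT and from 94.6 through 108 to 126 in KO, with coefficients of variation of 9.39% and 9.57%, below the enzyme medians of 18.7% and 19.4%. In KO, Sc5d, Acat2 and Ebp varied no more than Srebf2. The difference was -0.12 (interval -0.29 to 0.04, limma adjusted p = 0.659), and 5 of 6 KO mice lay below the WT median. Srebf2 correlated with Sqle at r = 0.701 (permutation p = 0.0146, adjusted 0.0367; rho = 0.720, p = 0.011, adjusted 0.0365), but r was 0.443 without KO mice 1 and 6, so the relation rests in large part on those mice. Scap, the escort of SREBP2, averaged 113 ± 15.1 CPM in WT and 109 ± 8.07 in KO (difference -0.04).

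Hmgcs1, early in the route, and Sqle, the first oxygen-dependent step, were the pair of synthesis enzymes tested singly. Their r was 0.844 (permutation p = 5e-04, adjusted p = 0.0025 over the 10 pairs; rho = 0.895, p = 0.00032, adjusted 0.0032), and 0.815 without WT mouse 5 and KO mouse 3. It was 0.874 in WT and 0.905 in KO.

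Of the genes for movement inside the cell, neither passed the test, and Stard4 had the larger estimate. Stard4, a soluble sterol carrier that SREBP2 induces, ran from 69.7 CPM through 78.0 to 105 in WT and from 84.0 through 89.7 to 107 in KO. All 6 KO mice lay above the WT median and 2 above every WT mouse, with a difference of 0.18 (interval -0.03 to 0.39, limma adjusted p = 0.589). Stard4 correlated with Sqle at r = 0.624 (permutation p = 0.0238, adjusted 0.0397; rho = 0.497, p = 0.11, adjusted 0.184), which dropped to 0.354 without WT mouse 5 and KO mouse 6. Npc1, which releases cholesterol from lysosomes, averaged 187 ± 18.7 CPM in WT and 192 ± 21.4 in KO (difference 0.03, interval -0.14 to 0.21), and it followed neither the enzymes (r = -0.068) nor the macrophage gene Cd68 (r = -0.308, permutation p = 0.367, adjusted 0.459; rho = -0.189, p = 0.563, adjusted 0.651).

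The canalicular sterol exporters had the largest differences of the set. Abcg5 and Abcg8 encode the subunits of 1 transporter that moves sterols from hepatocytes into bile. Abcg5 ran from 22.1 CPM through 27.2 to 32.7 in WT and from 28.2 through 33.9 to 51.4 in KO. All 6 KO mice exceeded the WT median and 4 exceeded every WT mouse, with KO mice 4 and 2 the highest at 51.4 and 47.3 CPM. The means of 27.5 ± 4.01 and 37.7 ± 9.34 CPM gave a 1.37-fold ratio and a difference of 0.42 (interval 0.11 to 0.73), with a limma adjusted p of 0.285.

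Abcg8 ran from 34.6 CPM through 48.9 to 55.1 in WT and from 45.9 through 61.2 to 95.1 in KO. KO mice 4, 2 and 3, at 95.1, 72.4 and 68.0 CPM, exceeded every WT mouse, and the other 3 lay among them. The means were 47.1 ± 7.11 and 64.7 ± 17.9 CPM, again 1.37-fold apart, with a difference of 0.42 (interval 0.08 to 0.76, limma adjusted p = 0.347). The spread was wider in KO than in WT for both genes, with coefficients of variation of 24.8% against 14.6% for Abcg5 and 27.7% against 15.1% for Abcg8. Without KO mouse 4 the differences were 0.33 and 0.30, and the two-sided exact permutation p over all assignments of the 12 mice was 0.0173 for Abcg5 and 0.0433 for Abcg8 before adjustment.

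Both genes lie head to head on chromosome 17 (mm10), Abcg5 at 84658234 to 84683011 and Abcg8 at 84676302 to 84700333. Exons in the annotation share 82 bases on opposite strands, 3.02% of those of Abcg5, where reads cannot be told apart without strand. The 109 bases between their RefSeq starts are shown because both genes are read outwards from them. No match to the 3 motifs searched lies within them, although an NF-Y box ends at the base just before the stretch, at the Abcg5 start. The third motif is the consensus liver X receptor direct repeat with a spacer of 4 bases, present in 0.0152% of all windows.
Abcg5-Abcg8 interval, chr17:84683012-84683120, + strand: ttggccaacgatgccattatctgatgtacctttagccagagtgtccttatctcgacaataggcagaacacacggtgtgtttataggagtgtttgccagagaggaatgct
Across mice the levels of Abcg5 and Abcg8 correlated at r = 0.730 (permutation p = 0.0183, adjusted 0.0367; rho = 0.608, p = 0.067, adjusted 0.144), with 0.370 in WT and 0.865 in KO. Without KO mice 2 and 4 r was 0.506, so the relation rests in large part on those mice. Neither gene followed the synthesis enzymes (r = -0.027 and -0.026).

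Abca1, which loads cholesterol onto apolipoprotein A-I and is the highest member in CPM, was the steadiest. It ran from 369 CPM through 433 to 466 in WT and from 398 through 404 to 446 in KO, with coefficients of variation of 8.08% and 4.90%. The difference was -0.04 (interval -0.17 to 0.09), so that a change of the size estimated for Abcg5 lay outside the interval of Abca1. Mylip, a ubiquitin ligase that lowers lipoprotein uptake, ran from 14.5 CPM through 16.2 to 19.3 in WT and from 14.3 through 18.5 to 24.0 in KO. Its difference was 0.16 (limma adjusted p = 0.715). Of the KO mice 3 exceeded every WT mouse and 1 lay below them all, and Mylip did not track Abca1 (r = 0.076, permutation p = 0.785, adjusted 0.785; rho = 0.056, p = 0.866, adjusted 0.866).

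**Figure D4:**
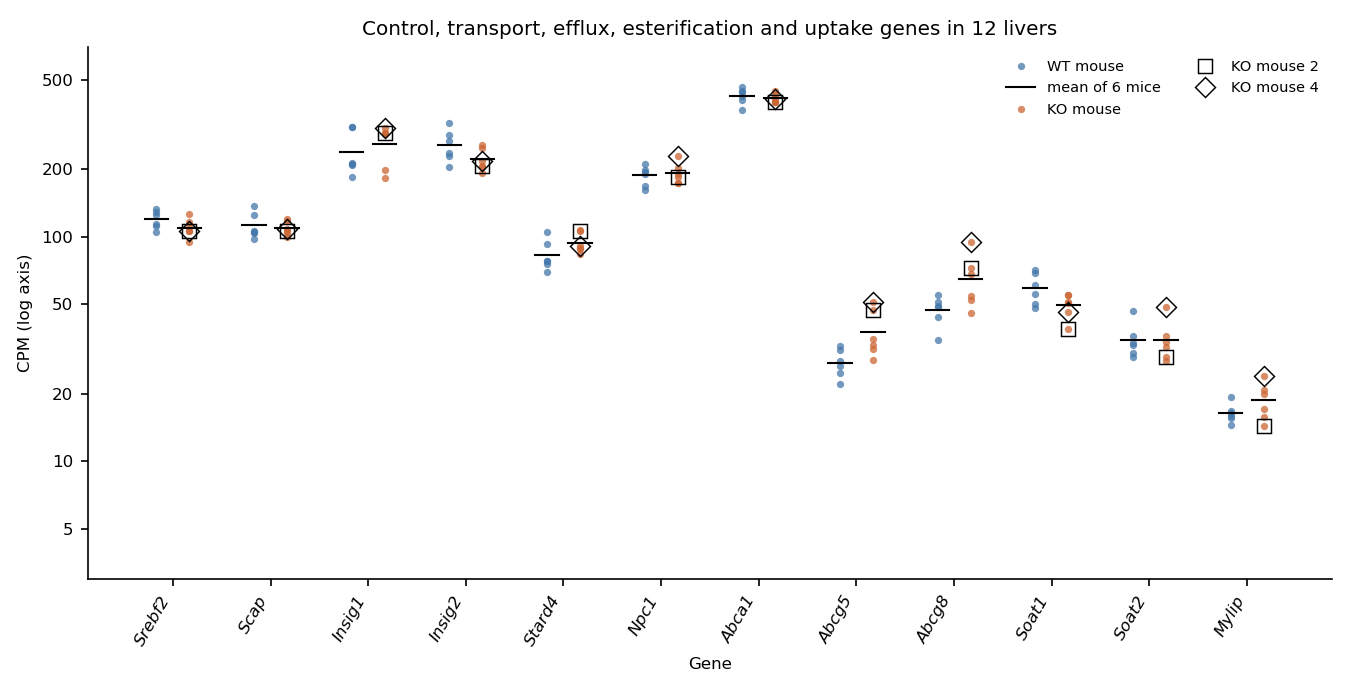
Level of the 12 genes of SREBP2 control, transport, efflux, esterification and uptake in each mouse, with genes on the x axis and CPM on a logarithmic y axis, blue points for WT, orange for KO and a bar for the mean of 6 mice. Open symbols mark KO mice 2 and 4, which hold the highest Abcg5 and Abcg8 values of all 12 mice, while the ranges of both genotypes overlap for every gene.

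Of the enzymes that store cholesterol as esters, Soat1 had the lower KO mean and the Soat2 means lay close together. Soat1, the form found in most cells including macrophages, ran from 48.0 CPM through 58.0 to 71.1 in WT and from 38.6 through 51.0 to 55.2 in KO. All 6 KO mice lay below the WT median and 2 below every WT mouse. The means of 59.0 ± 9.56 and 49.6 ± 6.29 CPM differed by -0.24 (interval -0.48 to -0.0034, limma adjusted p = 0.504). Before adjustment the two-sided exact permutation p was 0.0779, and the limma p stayed under 0.05 in 4 of the 12 fits that left out 1 mouse. Without KO mouse 2, the lowest, the difference was -0.17. Soat2, the hepatocyte and intestinal form, averaged 34.8 ± 6.34 and 34.6 ± 7.55 CPM (difference -0.02, interval -0.30 to 0.27). WT mouse 4 and KO mouse 4 held its highest values, 46.8 and 48.8 CPM.

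Soat1 moved from mouse to mouse with Cd68, the only macrophage marker whose correlation with it was tested. Over the 12 mice Soat1 and Cd68, a lysosomal protein of macrophages, correlated at r = 0.859 (permutation p = 0.00016, adjusted 0.0016; rho = 0.825, p = 0.00066, adjusted 0.0033), with 0.881 in WT, 0.906 in KO and 0.708 without WT mouse 5 and KO mouse 2. Cd68 itself averaged 64.7 ± 8.90 CPM in WT and 56.1 ± 11.4 in KO (difference -0.21, limma adjusted p = 0.654). The 6 macrophage markers, none of them at 0, summed to 1483 to 2265 CPM in WT and 1175 to 1663 in KO, and 0 of 6 passed the test. At an unadjusted p under 0.05, 2 of the 6 had lower and 2 higher KO means. Their part in the Soat1 difference was not tested, and in whole liver fewer cells of a type and less RNA per cell cannot be told apart. Soat1 did not track Abca1 (r = 0.232, permutation p = 0.533, adjusted 0.592; rho = 0.189, p = 0.586, adjusted 0.651).

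**Figure D5:**
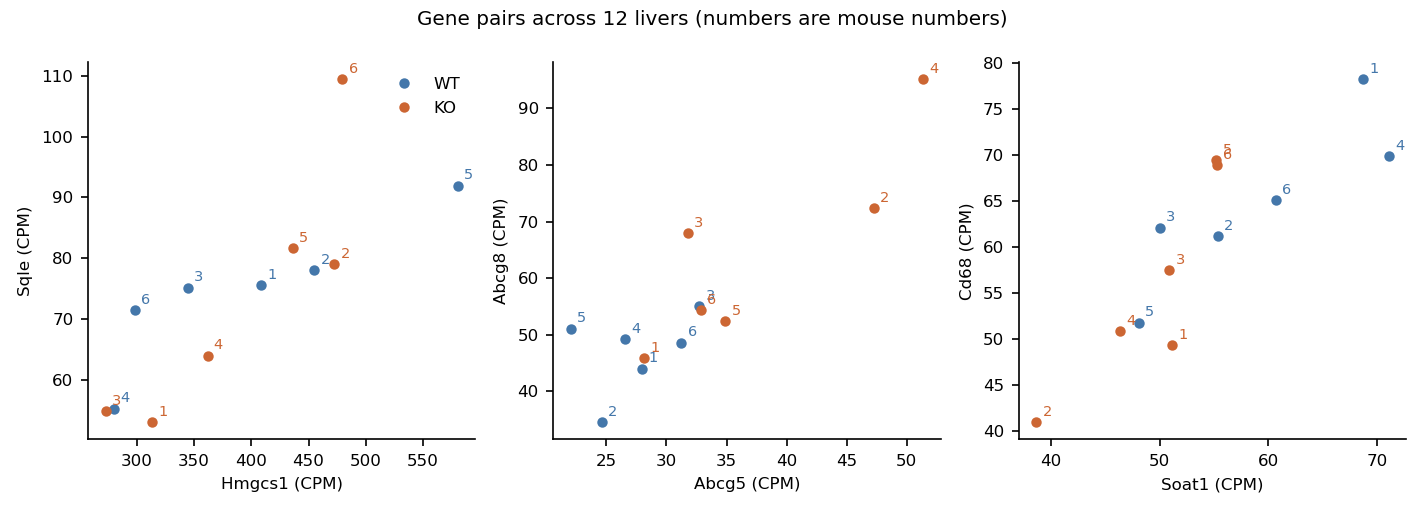
Paired levels in CPM of Hmgcs1 and Sqle, Abcg5 and Abcg8, and Soat1 and Cd68 across the 12 livers, with blue points for WT, orange for KO and mouse numbers beside the points. The Pearson r of deviations from the genotype means is 0.844, 0.730 and 0.859 from left to right, and KO mice 2 and 4 lie apart from the rest in the middle panel.

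A further 32 genes of sterol handling that are not among the 29, such as receptors, lysosomal proteins, Aster proteins and SREBP proteases, were tested alongside. By limma none of them (0 of 32) passed, against 0.152% of all tested genes, and the unadjusted p was under 0.05 for 2 of 32, against 9.8%. The 4 with the smallest p are given as values. Stard5, a cytosolic sterol-binding protein, had 70.2 to 93.8 CPM in WT and 92.2 to 117 in KO (difference 0.27, interval 0.11 to 0.44, limma adjusted p = 0.198), and 5 of the KO mice exceeded all WT mice. Gramd1b, an Aster protein that carries cholesterol from the plasma membrane to the endoplasmic reticulum, had 10.3 to 18.9 CPM in WT and 8.68 to 12.5 in KO (difference -0.33, adjusted p = 0.372). Next came the phospholipid transfer protein gene Pltp (difference 0.17, adjusted p = 0.557) and Nr1h3, which encodes liver X receptor alpha (0.08, adjusted p = 0.759). Their median difference was 0.01.

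Per kilobase of annotated exon, Hmgcs1 was highest at 85.3 CPM per kb, followed by Insig1 at 80.5, Insig2 at 68.8 and Sc5d at 66.4. Lss was lowest at 4.61 CPM per kb, after Mylip at 5.42 and Soat1 at 5.54. The exon lengths join all annotated transcripts, 10.8 kb for Lss, and so understate genes with long minor transcripts. The order between genes is therefore approximate. Hmgcs1 and Insig1 exchange order between mice, and so do the lowest genes, because their spread exceeds the gap between neighbours.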

How the data were processed

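Liver RNA was sequenced from 6 WT and 6 KO mice. The molecule label says polyA RNA, while the labels' protocols name globin and rRNA depletion and a directional library kit. The submitters' processing notes list mm10, Partek 10.0, STAR 2.7.3a and DESeq2 1.14.1 without roles; how counting used strand is not stated. The deposited values are CPM, and each of the 12 columns sums to 1000000. Low values (0.008 to 0.6 CPM) fell on multiples of a shared step in 71.4% to 76.5% of cases (tolerance 0.02 steps, against 4% by even spacing). Whole reads were not recovered, so a count test was not used, and depth came from that step. Counting errors do not cover amplification, since the reads carry no molecular identifiers. The design had assumed normalized counts, and its log-scale test also suits CPM.

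Symbols and positions for 20055 of 20143 IDs came from GENCODE M21 (mm10). After log2(CPM + 1), limma 3.58.1 (R 4.3.3, mean trend, two-sided, Benjamini-Hochberg, threshold 0.05) compared the genotypes over the 9186 genes whose mean reached 10 CPM. This step was tested on simulated data. The 10 gene-pair correlations used deviations from genotype means and 100000 two-sided permutations within genotype (SciPy 1.17.1, Python 3.11.15). Gene copies were sought with BLASTN 2.17.0. Each library is 1 mouse, so limma p-values set a difference between genotypes against the spread between mice. Those of gene pairs come from permuting mice within genotype.

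Members and lists were chosen with earlier results of these data known. All 29 members are described, most fully the 8 with the smallest p and the 5 with the largest mean coefficient of variation. Of 32 other sterol genes the 4 with the smallest p are named, and of genes in neither list the 5 most like the enzymes. Alternatives were pseudocounts of 0.5 and 10, other filters and scalings, no mean trend, an exact permutation test, a block by mouse number, and leaving out each mouse.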

Additional observations from a re-analysis of the deposited data

Results flagged for a closer look

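In WT, mouse 5 stood far from the other 5 mice for 2 of the 29 genes, with a gap to the nearest mouse, relative to the whole range, above Dixon's 95% critical value. Fdps was at 126.6 CPM in WT mouse 5 with the next WT mouse at 85.0, a gap of 0.661 of the range. Nsdhl was at 50.7 CPM in WT mouse 5 with the next at 36.5, a gap of 0.669. In all, 58 groups of 6 mice were checked, and chance alone passes this limit in about 1 of 20 groups.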

How the results depend on the processing

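Under every alternative run, 0 of the 29 cholesterol genes and 0 of the 32 other sterol genes passed the adjusted test (19 and 20 of them were tested with the filter at 50 CPM), with a lowest adjusted p among the 29 of 0.162, for Nsdhl without WT mouse 5. Over all genes, 14 passed as reported (10 higher, 4 lower), 29 with no filter, 5 with a filter at 50 CPM, 27 with median-of-ratios scaling (16 higher, 11 lower) and 9 (without WT mouse 3) to 25 (without KO mouse 3) when 1 mouse was left out. With the exact permutation test 0 passed, with 832 genes at an unadjusted p under 0.05. The smallest p of that test was 0.0022, reached by Hsd17b13 with its groups fully apart, and the smallest adjusted p was 0.242. Even a gene with fully separated groups thus could not pass it. Its count of 0, for all genes and for both sterol lists, therefore decides nothing. Cholesterol genes at an unadjusted p under 0.05 numbered 3, and 2 to 7 without 1 mouse, 7 being without WT mouse 5. For the other sterol genes that count was 2, then 1 with the filter at 50 CPM and 1 to 3 without 1 mouse. The cause was not tested.

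Of 599 differences recomputed for the 29 genes, 561 kept their sign and 38, in 12 genes, did not. The median difference over all tested genes was -0.010 as reported, 0.035 with median-of-ratios scaling and 0.0014 with quantile normalization. With median-of-ratios scaling the differences were 0.043 for Hmgcs1, 0.0085 for Scap, 0.0091 for Abca1 and 0.030 for Soat2, and with quantile normalization -0.012 for Cyp51. Without 1 mouse they ran from -0.093 to 0.12 for Hmgcs1, -0.0097 to 0.22 for Mvd, -0.091 to 0.13 for Idi1, -0.0064 to 0.14 for Fdft1, -0.17 to 0.036 for Sqle, -0.031 to 0.20 for Lss, -0.068 to 0.095 for Cyp51, -0.057 to 0.15 for Msmo1, -0.076 to 0.020 for Scap, -0.019 to 0.070 for Npc1 and -0.12 to 0.071 for Soat2. The median correlation between enzymes was 0.759 to 0.840 without 1 mouse, and its alternatives were chosen after seeing the data.

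Mice of both genotypes share numbers. Same-numbered mice deviated together with correlations of -0.514 to 0.388, above 0.1 for 4 numbers, and 2 of 6 WT mice correlated best with their own number. This did not show that the numbers pair mice, and with 6 numbers it cannot exclude it. With the mouse number as a block, 11 genes and 0 of the 29 passed, 3 cholesterol genes and 3 other sterol genes had an unadjusted p under 0.05, and the median correlation between enzymes was 0.875.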
